A study of Mus musculus with 23 samples.

Results

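The transcripts described here encode inhibitory and signalling lymphocytic activation molecule (SLAM) family immune receptors of brain macrophages. They were 10 of the 18876 genes of a raw count table, picked by symbol in 3 classes: the checkpoint receptors and ligand Lag3, Havcr2, Vsir and Cd274, the receptors of the inhibitory ITIM class Lilrb4a, Pilra and Cd33, and the SLAM family members Ly9, Cd48 and Cd84. The table came from bulk RNA sequencing of CD11b+ cells, isolated with magnetic beads from the hippocampi of 23 female mice and labelled as microglia. The question was what microglial knockdown of Slc11a2, which encodes the iron importer DMT1, does to these cells in a mouse model of Alzheimer's disease. Every mouse was Slc11a2 fl/fl and carried Cx3cr1-CreERT2 +/-, a tamoxifen-inducible Cre placed in 1 allele of Cx3cr1, on a mixed 129S;C57BL/6J background, so that the control groups carried the floxed gene and the Cre too. Control WT (n = 6) and Control APP/PS1 (n = 7, of which 6 were tested) received corn oil. Slc11a2KD WT (n = 5) and Slc11a2KD APP/PS1 (n = 5) were gavaged daily with 4 mg tamoxifen for 5 days, when aged 5 to 6 months. APP/PS1 mice were hemizygous for the transgene of this amyloid model, WT mice were littermates without it, and cells were collected at 15 to 18 months. Tamoxifen was given to both knockdown groups and to no control, so tamoxifen and the knockdown cannot be told apart in these data. Cre expressed from Cx3cr1 also acts in macrophages other than microglia.

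Checkpoint receptors restrain immune cells after they bind a ligand on a neighbouring cell, and the best known pair is PD-1 on T cells with its ligand PD-L1, the product of Cd274. ITIM receptors carry a tyrosine motif that, once phosphorylated by Src kinases, recruits the phosphatases SHP-1, SHP-2 or SHIP-1 and dampens activating signals. SLAM family receptors mostly bind themselves on a facing cell and pass on either activating or inhibiting signals through small SAP adaptors, and their genes lie side by side on mouse chromosome 1. Microglia carry members of all 3 classes, and human CD33 and PILRA lie at loci linked to the risk of Alzheimer's disease.

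Each of the 22 tested libraries held between 31128643 and 54872491 counts, with a median of 41460280. The study set aside a Control APP/PS1 sample as an outlier of its group, and its main text gives no number for it. Replicate 10 was taken as that sample and left out of the tests except where it is said to be kept. Its values are given in the closing section. The gene total of Slc11a2 was 35.1 ± 5.13 CPM (counts scaled to the normalized library size; SD, n = 6) in Control WT, 43.2 ± 3.93 (n = 6) in Control APP/PS1, 34.2 ± 4.75 (n = 5) in Slc11a2KD WT and 56.5 ± 13.5 (n = 5) in Slc11a2KD APP/PS1. This total also counts reads outside the floxed exons 6 to 8, so it does not check the labels, and every direction given below follows them. The summed level of 9 microglial markers was 40894 to 47790 CPM in Control WT, 32246 to 37244 in Control APP/PS1, 42269 to 48418 in Slc11a2KD WT and 34962 to 39734 in Slc11a2KD APP/PS1, against at most 56.4 CPM for 7 T cell markers in any library. The library numbers in the labels separate the groups: controls hold 5 to 17, and knockdown samples hold 1 to 4 or 18 to 23. What the numbers stand for is not given in the sources used here.

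The 10 transcripts covered a wide range of levels. In Control WT, Vsir was the highest per kilobase of exon, at 443 ± 24.3 CPM per kb (SD, n = 6). Lag3 (91.9 ± 17.5 CPM per kb), Cd48 (80.2 ± 12.8) and Cd33 (76.7 ± 4.95) followed, and these neighbours did not differ beyond their spread. Cd84 (36.3 ± 7.74 CPM per kb) and Havcr2 (28.0 ± 2.99) came next and overlapped within 1 SD. Pilra (5.64 ± 1.37 CPM per kb), Ly9 (4.38 ± 1.07) and Cd274 (3.78 ± 1.08) formed a lower tier whose spreads also overlapped. Lilrb4a was near the limit of detection at 0.0348 ± 0.0411 CPM per kb, with 3 of 6 Control WT libraries at 0 counts. All other levels below are CPM without the length correction, so they compare 1 gene between samples.

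**Figure D1:**
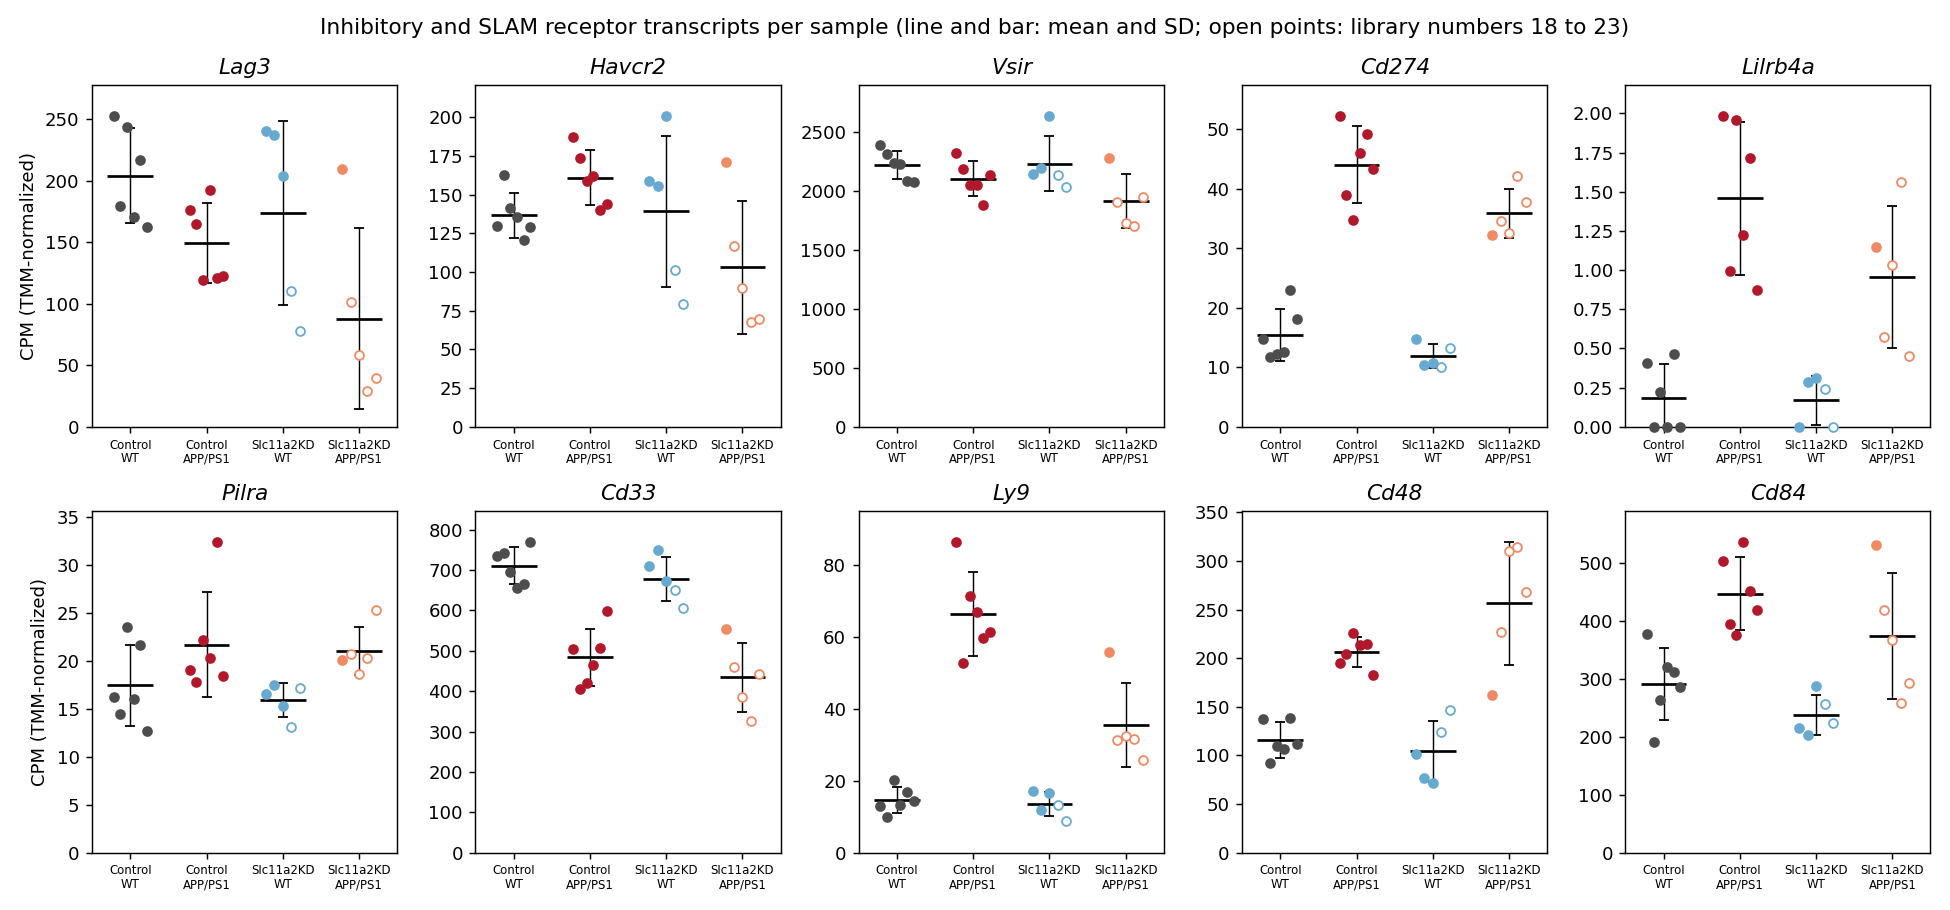
Normalized level (CPM, linear axes from 0, a scale for each gene) of the 10 receptor transcripts in each of the 22 tested samples, by group, with the group mean and SD as line and bar. Open points are library numbers 18 to 23. The Control APP/PS1 points of Cd274 (34.7 to 52.2 CPM) and Ly9 (52.6 to 86.3) all lie above the Control WT points (11.7 to 23.1 and 9.77 to 20.1), and the open points of Lag3 and Havcr2 lie below the filled knockdown points.

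The comparison of APP/PS1 with WT asks which receptors differ in cells from a brain with amyloid pathology, once in mice given corn oil and once in mice given tamoxifen. Cd274 and the SLAM family members Ly9, Cd48 and Cd84 rose in APP/PS1 and Cd33 fell, in both settings. In the corn oil mice, 4 of 10 transcripts were higher in Control APP/PS1 than in Control WT by edgeR's quasi-likelihood test (adjusted p under 0.05 over 18759 genes), where 5.99% of all genes were called higher, and 1 was lower, where 4.48% of all genes were called lower. In the tamoxifen mice the counts were again 4 higher, beside 9.77% of all genes, and 1 lower, beside 6.41%. The 2 comparisons share no sample. Without regard to the model, every Control APP/PS1 sample lay above every Control WT sample for 4 transcripts (Cd274, Lilrb4a, Ly9 and Cd48), as for 5.33% of all genes, and below for Cd33 alone, as for 3.03%. Every Slc11a2KD APP/PS1 sample lay above every Slc11a2KD WT sample for 5 (the same 4 and Pilra), as for 4.18% of all genes, and below again for Cd33, as for 2.88%. Each of the 5 called transcripts stayed called in both comparisons when any of the 22 samples was left out. Choroid plexus markers summed to 1.1 to 973 CPM in Control WT and 1.3 to 4.8 in Control APP/PS1, and the same 5 were called in the corn oil mice without Control WT replicates 12 and 15, which held the most. In bulk RNA, fewer cells of a type and less RNA per cell cannot be told apart, which holds for every difference given here.

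**Figure D2:**
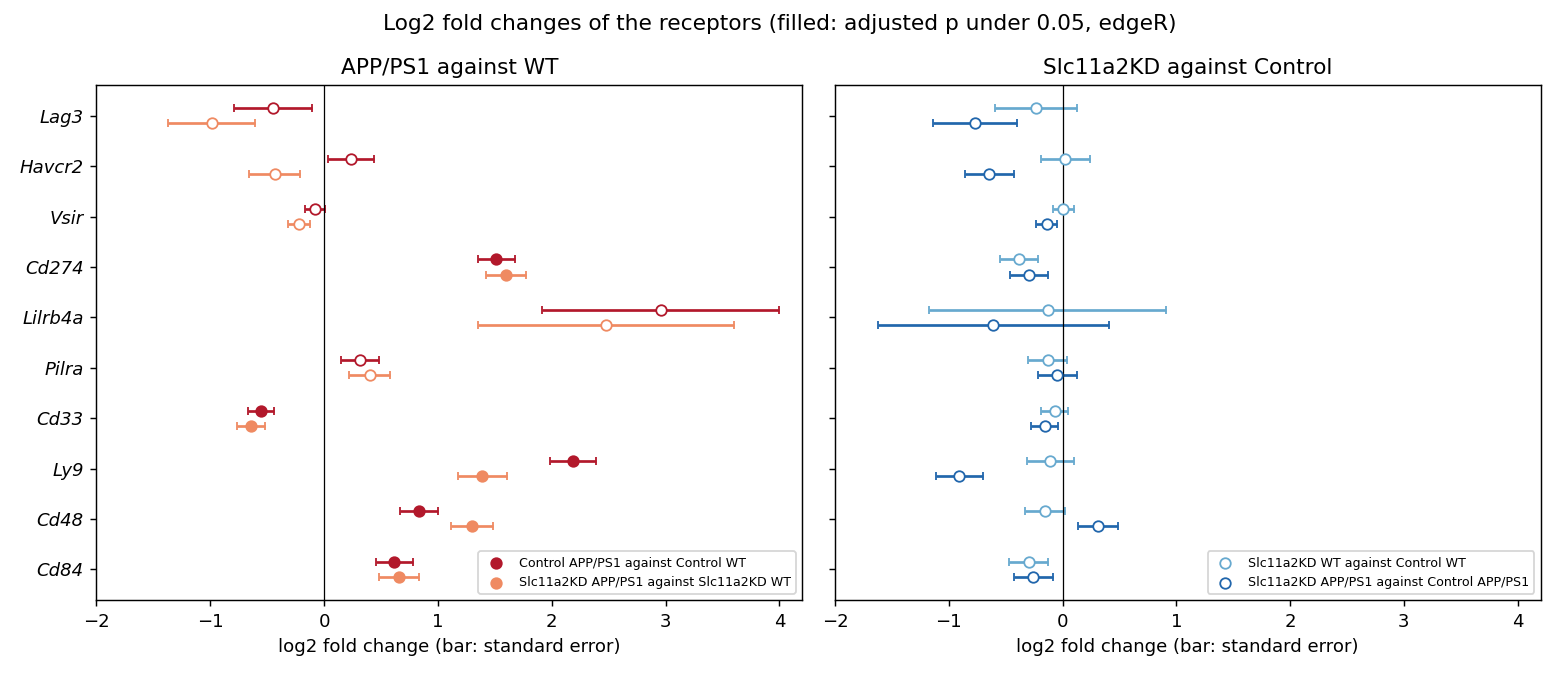
Log2 fold change with its standard error for each receptor transcript, APP/PS1 against WT in the left panel and Slc11a2KD against Control in the right panel, from 1 edgeR fit of 22 samples. Filled points have an adjusted p under 0.05. Cd274, Ly9, Cd48, Cd84 and Cd33 are filled in both genotype comparisons, and no point is filled in the knockdown comparisons.

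Cd274, the gene of PD-L1, showed the clearest genotype difference among the checkpoint genes. Its level in Control WT ran from 11.7 CPM through a median of 13.7 to 23.1, and in Control APP/PS1 from 34.7 through 44.7 to 52.2. The lowest transgenic sample was above the highest WT sample, and the log2 fold change was 1.51 (SE 0.16, edgeR adjusted p = 5.0e-07). After tamoxifen, Slc11a2KD WT samples were at 14.8, 10.5, 10.7, 10.1 and 13.2 CPM and Slc11a2KD APP/PS1 samples at 32.3, 34.5, 32.6, 42.1 and 37.8. The groups were again apart, with a log2 fold change of 1.60 (SE 0.18, edgeR adjusted p = 1.3e-06). The exact two-sided permutation test on mean log2 CPM gave p = 0.0022 in corn oil mice and p = 0.0079 in tamoxifen mice, in each case the smallest it can give. Cd274 lies at chr19:29344529-29365495 (GRCm39, plus strand), and 14.2% of its exon length is shared with Gm36043 on the other strand, so reads there could belong to either unless counted by strand.

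The 250 bases before the annotated start of Cd274 are shown because Cd274 is the only one of the 4 checkpoint members that rose in both settings. Capitals mark matches to letters that blood cell and interferon factors are known to bind, a PU.1-type ETS motif (GAGGAAG) starting 192 bases and an interferon regulatory factor (IRF) motif (GAAANNGAAA, here on the minus strand) starting 41 bases before the start site. The window is chr19:29344279-29344528, GRCm39, plus strand.
Cd274: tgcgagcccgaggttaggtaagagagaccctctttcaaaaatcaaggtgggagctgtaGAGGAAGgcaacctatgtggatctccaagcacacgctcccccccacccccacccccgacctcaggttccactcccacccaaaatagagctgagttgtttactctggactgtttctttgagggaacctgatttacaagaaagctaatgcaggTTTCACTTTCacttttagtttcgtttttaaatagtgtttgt
Among 14341 windows of this length before protein-coding genes of the table, 11.04% held GAGGAAG and 3.23% held GAAANNGAAA on either strand. The matches are not particular to Cd274: the window of Pilra, which was not called for genotype, held both, and those of Lag3 and Cd33 held GAGGAAG. A match describes the letters and is no evidence of binding.

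The 3 checkpoint receptors did not pass the test for genotype in the main edgeR fit of all 4 groups. Lag3, an inhibitory receptor for MHC class II, was at 162, 198 and 253 CPM (lowest, median and highest) in Control WT and at 119, 144 and 192 in Control APP/PS1. The ranges overlapped, and the log2 fold change was -0.45 (SE 0.35, edgeR adjusted p = 0.485). With only these groups in the fit, Lag3 was called lower (-0.44, SE 0.15, edgeR adjusted p = 0.0482). Lag3 spread most among the tamoxifen mice, at 240, 237, 204, 111 and 77.8 CPM in Slc11a2KD WT and 210, 101.2, 58.2, 29.5 and 39.9 in Slc11a2KD APP/PS1. The first 3 WT values and the first transgenic value, all from library numbers 1 to 4, stood above the others. The log2 fold change was -0.99 (SE 0.38, edgeR adjusted p = 0.0788), and it was called without Slc11a2KD APP/PS1 replicate 4 (-1.60, adjusted p = 0.0010) or without Slc11a2KD WT replicate 22 (-1.17, adjusted p = 0.0267).

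Havcr2, the gene of TIM-3, was at 121, 133 and 163 CPM in Control WT and 140, 161 and 187 in Control APP/PS1, with ranges that overlapped (log2 fold change 0.24, SE 0.20, edgeR adjusted p = 0.557). After tamoxifen it was at 159, 156, 201, 101.2 and 79.1 CPM in WT and 171, 117, 89.5, 68.0 and 70.0 in APP/PS1. The estimate there had the other sign (-0.43, SE 0.22, edgeR adjusted p = 0.188), and without Slc11a2KD APP/PS1 replicate 4 it was called lower (-0.69, adjusted p = 0.0148). Without Slc11a2KD WT replicate 3 it was at -0.26 (edgeR adjusted p = 0.499). Vsir, the gene of the checkpoint receptor VISTA and the most abundant of the 10, had the smallest genotype estimate of the 10 in both comparisons of the main edgeR fit. Its mean level was 2223 ± 122 CPM (SD) in the 6 Control WT samples, 2106 ± 147 in the 6 Control APP/PS1, 2232 ± 234 in the 5 Slc11a2KD WT and 1914 ± 229 in the 5 Slc11a2KD APP/PS1 samples. Its log2 fold changes for genotype were -0.08 (SE 0.09) and -0.22 (SE 0.10), with edgeR adjusted p of 0.681 and 0.122, and the second was called without Slc11a2KD APP/PS1 replicate 4 (-0.29, adjusted p = 0.0266). With that sample left out, 4 transcripts were lower in Slc11a2KD APP/PS1 than in Slc11a2KD WT, namely Lag3, Havcr2, Vsir and Cd33, beside 12.6% of all genes. The transgenic samples were then all from library numbers 18 to 23, set against WT samples from both runs of numbers. Within library numbers 18 to 23, Lag3 was at -0.72 (edgeR adjusted p = 0.222), Havcr2 at -0.07 (adjusted p = 0.913) and Vsir at -0.20 (adjusted p = 0.353), none of them called. With a term for the run on all samples they were at -0.50, -0.05 and -0.14, again not called by edgeR. DESeq2 on all 22 samples called 3 lower there (Lag3, Vsir and Cd33), beside 9.41% of all genes.

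Cd33, a sialic acid-binding receptor of myeloid cells, was the one member that the main edgeR fit called lower in APP/PS1. It was at 655, 716 and 770 CPM (lowest, median and highest) in Control WT and at 406, 485 and 599 in Control APP/PS1. No sample of one group reached the other, and the log2 fold change was -0.56 (SE 0.11, edgeR adjusted p = 0.0019). In Slc11a2KD WT it was at 710, 750, 672, 651 and 607 CPM and in Slc11a2KD APP/PS1 at 554, 461, 386, 327 and 443. Here too the groups were apart, with a log2 fold change of -0.64 (SE 0.13, edgeR adjusted p = 0.0012). The summed microglial markers given above were also lower in APP/PS1, with 4 of 9 called lower in corn oil and 6 of 9 in tamoxifen mice. Monocyte and neutrophil markers summed to 80.4 to 300.3 CPM in Control WT and 26.1 to 88.3 in Control APP/PS1 (5 of 7 lower), and to 85.1 to 448 in Slc11a2KD WT and 47.1 to 176 in Slc11a2KD APP/PS1 (none called). Border-associated macrophage markers were lower too, 5 of 6 in corn oil and 3 of 6 in tamoxifen mice. The part of these cells in the fall of Cd33 was not tested. Cd33 lies on the minus strand at chr7:43173634-43193875.

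The other ITIM receptors had small counts or small differences. Pilra, which binds sialylated proteins such as PIANP, had means of 17.4 ± 4.24 CPM (SD) over the 6 Control WT samples and 21.7 ± 5.47 over the 6 Control APP/PS1 samples, with ranges that overlapped (log2 fold change 0.32, SE 0.16, edgeR adjusted p = 0.244). Without Control APP/PS1 replicate 16, its highest sample, the log2 fold change was 0.17 (edgeR adjusted p = 0.615). With tamoxifen it was at 16.5, 17.5, 15.3, 13.1 and 17.2 CPM in WT and 20.1, 20.7, 18.6, 20.3 and 25.3 in APP/PS1. These groups were apart by a small step, and the edgeR test did not call it (log2 fold change 0.40, SE 0.18, adjusted p = 0.128). Exons of Zcwpw1 on the other strand cover 15.1% of the exon length of Pilra.

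Lilrb4a, which restrains mast cells and macrophages, was barely detected in WT and low in APP/PS1. Its counts were 0 to 21 in Control WT and 36 to 93 in Control APP/PS1, or 0.183 ± 0.216 and 1.46 ± 0.489 CPM (SD, n = 6 each). Every transgenic sample was above every WT sample, and the exact permutation test gave p = 0.0022, the smallest it can give. The edgeR estimate was wide, a log2 fold change of 2.96 (SE 1.04, adjusted p = 0.0729). It was called by DESeq2 (adjusted p = 0.00996), with Control APP/PS1 replicate 10 kept (edgeR adjusted p = 0.0454) and without Slc11a2KD WT replicate 22 (edgeR adjusted p = 0.0493). A fit by edgeR of only these groups called it too. In the tamoxifen mice counts were 0 to 12 in WT and 14 to 61 in APP/PS1, with 2 WT libraries at 0 (log2 fold change 2.48, SE 1.12, edgeR adjusted p = 0.132). DESeq2 called it there too (2.52, adjusted p = 0.0385). In the GENCODE M39 annotation, Gm49339 on the same strand shares 35.1% of the exon length of Lilrb4a, and it was not a row of the count table.

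Ly9, the gene of SLAMF3, had the largest genotype difference of the 10 that the main edgeR fit called in the corn oil mice. It ran from 9.77 CPM through a median of 13.9 to 20.1 in Control WT and from 52.6 through 64.0 to 86.3 in Control APP/PS1. The groups were far apart, with a log2 fold change of 2.19 (SE 0.20, edgeR adjusted p = 6.5e-08). In the tamoxifen mice Ly9 was at 17.1, 12.0, 16.5, 13.3 and 8.70 CPM in WT and at 55.8, 31.4, 32.5, 31.6 and 25.7 in APP/PS1. Replicate 4 alone of the second group was in the range of Control APP/PS1, the others lay between it and WT, and the log2 fold change was 1.39 (SE 0.22, edgeR adjusted p = 1.1e-04).

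Cd48, the gene of a lipid-anchored SLAM receptor that binds the product of Cd244a, was at 92.1, 110 and 138 CPM in Control WT and 183, 209 and 226 in Control APP/PS1. The ranges did not meet, and the log2 fold change was 0.83 (SE 0.17, edgeR adjusted p = 0.0016). In Slc11a2KD WT it was at 101.1, 77.0, 71.9, 124 and 147 CPM and in Slc11a2KD APP/PS1 at 162, 226, 310, 314 and 268. The samples of library numbers 1 to 4 were the lowest of each knockdown group, where for Lag3 they were the highest, and the log2 fold change was 1.30 (SE 0.19, edgeR adjusted p = 3.6e-05). Cd84, the gene of SLAMF5, was at 191, 299 and 376.3 CPM in Control WT and 375.8, 435 and 536 in Control APP/PS1. The lowest transgenic and the highest WT samples just overlapped, and the log2 fold change was 0.62 (SE 0.16, edgeR adjusted p = 0.0149). After tamoxifen Cd84 was at 215, 203, 287, 256 and 224 CPM in WT and 531, 419, 367, 258 and 293 in APP/PS1, with overlap and a log2 fold change of 0.66 (SE 0.18, edgeR adjusted p = 0.0136). That call was lost when only these 2 groups entered the fit (adjusted p = 0.063).

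The SLAM family genes from Cd244a to Slamf6 lie within 394.0 kb of chromosome 1 and include all 3 SLAM members described here, with Ly9 inside the span of Cd244a but sharing no exon base with it. Of the 9 family genes of that chromosome tested, 6 rose in Control APP/PS1, namely Cd244a, Ly9, Slamf7, Cd48, Cd84 and Slamf9, where 5.99% of all genes were called higher, and Ly9, Cd48 and Cd84 are members already counted. Cd244a, whose product is the receptor for CD48, went from 2.12 to 10.5 CPM (log2 fold change 2.31, SE 0.34, edgeR adjusted p = 5.3e-05), and Slamf9 from 117 to 246 CPM (1.07, SE 0.15, edgeR adjusted p = 2.9e-05). Slamf7 was at 3.07 and 12.2 CPM (1.99, SE 0.58, edgeR adjusted p = 0.0289). The same 6 rose in the tamoxifen mice, beside 9.77% of all genes, and Slamf1 fell there (-1.41, SE 0.42, edgeR adjusted p = 0.0229). Slamf6, which lies next to Cd84, was at 0.31 and 0.45 in the 2 comparisons (edgeR adjusted p = 0.255 and 0.0867) and was not called in either.

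**Figure D3:**
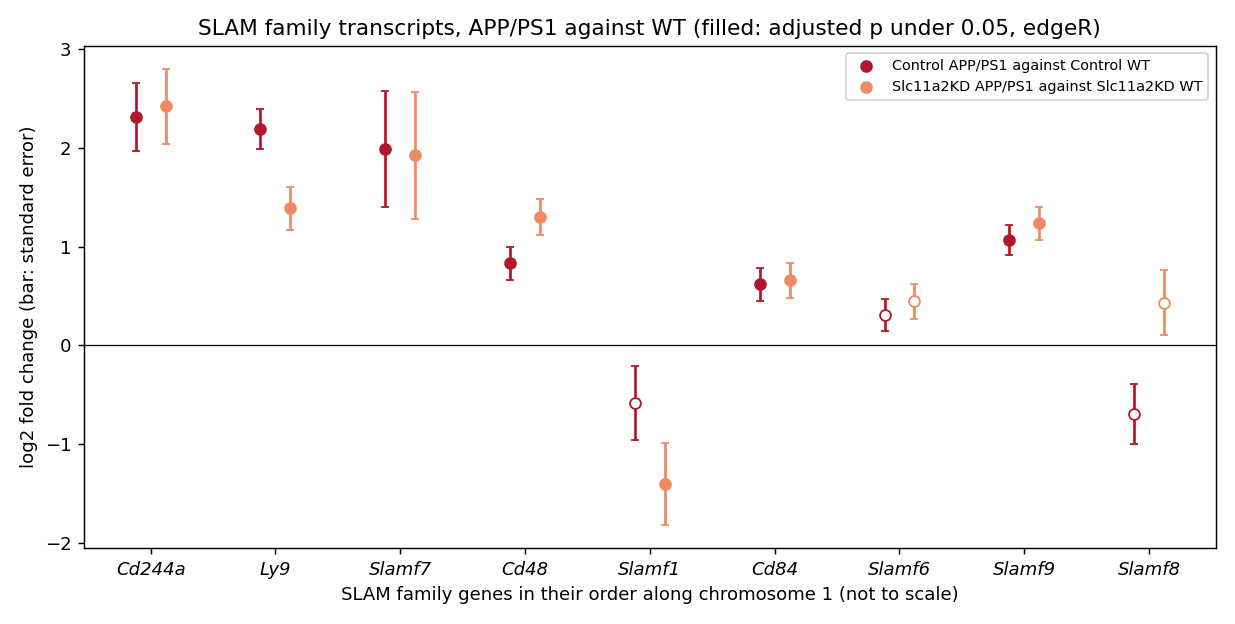
Log2 fold change with standard error of the 9 tested SLAM family genes, APP/PS1 against WT, in the order of the genes along chromosome 1 (positions not to scale). Filled points have an edgeR adjusted p under 0.05. Ly9, Cd48 and Cd84 are filled and above 0 in both comparisons, while Slamf6 and Slamf8 are open in both.

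The 250 bases before the start sites of Ly9 and Cd48 are shown since both genes rose in both settings and lie in the same cluster, with Slamf7 between them. The windows are chr1:171434979-171435228 on the minus strand for Ly9 and chr1:171509323-171509572 on the plus strand for Cd48 (GRCm39).
Ly9: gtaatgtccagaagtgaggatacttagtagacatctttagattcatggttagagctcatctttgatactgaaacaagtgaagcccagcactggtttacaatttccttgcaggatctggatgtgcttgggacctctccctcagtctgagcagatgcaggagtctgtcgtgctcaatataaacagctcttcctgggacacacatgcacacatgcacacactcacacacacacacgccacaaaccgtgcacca
Cd48: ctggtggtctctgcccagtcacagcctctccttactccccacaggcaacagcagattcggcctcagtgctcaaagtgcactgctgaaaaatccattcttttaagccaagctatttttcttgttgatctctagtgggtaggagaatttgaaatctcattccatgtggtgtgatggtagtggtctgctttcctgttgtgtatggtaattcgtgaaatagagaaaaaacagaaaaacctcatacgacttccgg
Neither window held GAGGAAG, the AP-1 letters TGANTCA, the STAT letters TTCNNNGAA, the E-box CACGTG or GAAANNGAAA on either strand, hence no capitals. Of all 14341 windows 4.66% held TGANTCA, 6.62% held TTCNNNGAA and 7.43% held CACGTG. The search says only that these letters are not in these bases.

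The knockdown comparisons ask what tamoxifen and the loss of Slc11a2 exons do within each genotype. None of the 10 transcripts passed the test in either genotype, and 0% of all genes did in either comparison with edgeR. In WT, 1 of 10 had an unadjusted p under 0.05, beside 5.92% of all genes. That was Cd274, at a mean of 15.4 ± 4.42 CPM (SD, n = 6) in Control WT and 11.9 ± 2.04 (n = 5) in Slc11a2KD WT, a log2 fold change of -0.38 (SE 0.17, edgeR unadjusted p = 0.0324, adjusted p = 0.739). DESeq2 called 0 of the 10 in WT.

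In APP/PS1, 3 of 10 had an unadjusted p under 0.05, beside 20.6% of all genes. Ly9 had a mean of 66.3 ± 11.7 CPM (SD) over the 6 Control APP/PS1 samples and 35.4 ± 11.7 over the 5 Slc11a2KD APP/PS1 samples, of which 4 lay below every control sample. Its log2 fold change was -0.91 (SE 0.21, edgeR adjusted p = 0.205), and the exact permutation test gave an unadjusted p of 0.0043. Havcr2 averaged 161 ± 17.8 and 103 ± 42.8 CPM (-0.64, SE 0.22, edgeR adjusted p = 0.205), and Lag3 149 ± 32.4 and 87.7 ± 73.5 CPM (-0.77, SE 0.37, edgeR adjusted p = 0.238). DESeq2 called Ly9 (-0.87, adjusted p = 0.0206) and Havcr2 (-0.61, adjusted p = 0.0495) lower, beside 0.698% of all genes. That share counts genes without a DESeq2 adjusted p, among them Cd274, Pilra and Lilrb4a, as not called. The share among genes that were given one is therefore higher. Calls by edgeR turned on replicate 4: without it, edgeR called Ly9 (-1.13), Lag3 (-1.38) and Havcr2 (-0.90) lower, each with adjusted p = 0.0202, beside 9.07% of all genes. The study itself named Lag3 and Ly9 as lower here without that sample. Members were chosen with earlier results of these data known, so these calls are no independent support. Choroid plexus markers summed to 1.3 to 4.8 CPM in Control APP/PS1 and 2.1 to 123 in Slc11a2KD APP/PS1 (none of 8 called by edgeR). Their part in these differences was not tested.

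Whether the genotype difference itself depends on the knockdown was tested as an interaction. It was called for 0 of the 10 transcripts by edgeR, beside 0% of all genes, and for 0 by DESeq2. At an unadjusted p under 0.05 there were 2 of 10, beside 9.08% of all genes. Ly9 had a difference of log2 fold changes of -0.80 (SE 0.29, edgeR adjusted p = 0.544), its rise in APP/PS1 being 2.19 in corn oil and 1.39 in tamoxifen mice. Havcr2 had one of -0.67 (SE 0.30, edgeR adjusted p = 0.544). Without replicate 4 of Slc11a2KD APP/PS1 they were -1.02 and -0.93, each with adjusted p = 0.168 by edgeR. With library numbers 18 to 23 as the only knockdown samples, Ly9 was at -0.73 (edgeR adjusted p = 0.841) and Havcr2 at -0.30 (adjusted p = 0.851). With a term for that run on all samples they were at -0.57 and -0.28, neither called by edgeR. For Cd48, whose genotype difference was 0.83 and 1.30, the interaction did not pass the test either.

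The knockdown samples with library numbers 18 to 23 (4 APP/PS1 and 2 WT) differed from those with 1 to 4 (1 APP/PS1 and 3 WT) in 4 of the 10 transcripts. With a term for this split beside the 4 group means, Lag3 (-1.52, SE 0.25, edgeR adjusted p = 4.2e-04), Havcr2 (-0.96, SE 0.15, adjusted p = 3.0e-04) and Ly9 (-0.64, SE 0.19, adjusted p = 0.0144) were lower in 18 to 23, beside 12.7% of all genes. Cd48 was higher (0.73, SE 0.14, edgeR adjusted p = 7.1e-04), beside 11.3% of all genes. Among WT knockdown samples alone, Lag3 averaged 227 ± 20.4 CPM (SD, n = 3) in library numbers 1 to 3 and 94.3 ± 23.3 (n = 2) in 18 to 23, and Havcr2 averaged 172 ± 25.2 and 90.1 ± 15.6. In that WT contrast Lag3 and Havcr2 were called lower, beside 5.41% of all genes, and Cd48 higher, beside 6.33%, while Ly9 was not called (-0.46, edgeR adjusted p = 0.242). The choroid plexus markers moved with the same split, with summed levels of 2.1 to 22.3 CPM in library numbers 1 to 4 and 25.3 to 378 in 18 to 23 (7 of 8 higher). Of the microglial markers 2 of 9 were higher and 3 lower in 18 to 23, of the monocyte and neutrophil markers 2 of 7 were higher, of the border-associated macrophage markers 1 of 6 was higher and 1 lower, and of the dendritic cell markers 1 of 6 was lower. The part of these cells in the differences was not tested.

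**Figure D4:**
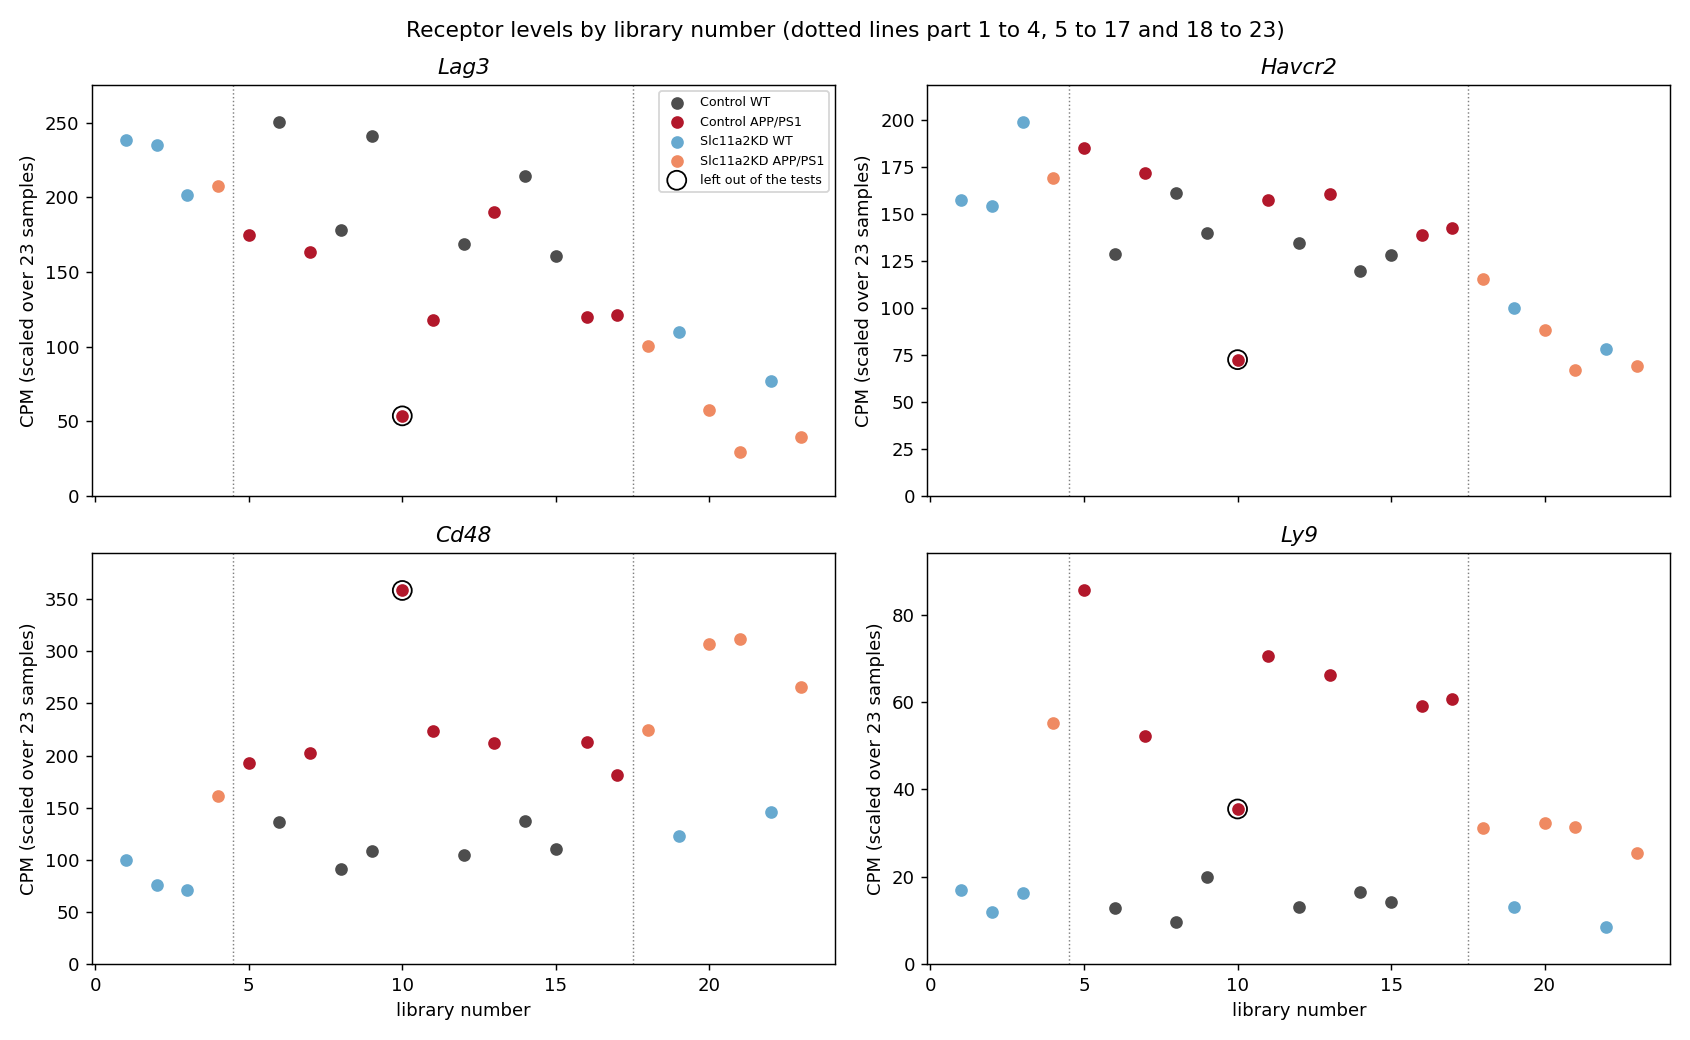
Level (CPM scaled over all 23 samples) of Lag3, Havcr2, Cd48 and Ly9 against the library number of each sample, coloured by group, with dotted lines between the runs of numbers. Knockdown samples numbered 18 to 23 are low for Lag3 and Havcr2 in both genotypes, and the circled Control APP/PS1 sample was left out of the main tests.

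Because replicate 4 is the only Slc11a2KD APP/PS1 sample in library numbers 1 to 4, and no control falls in 18 to 23, a knockdown difference in APP/PS1 and a difference between the runs cannot be told apart. Only library numbers 18 to 23 of Slc11a2KD APP/PS1 set against Control APP/PS1 gave Ly9 (-1.13, edgeR adjusted p = 0.0019), Lag3 (-1.38, adjusted p = 0.0023) and Havcr2 (-0.90, adjusted p = 0.0019) as lower, beside 12.3% of all genes, and Cd48 (0.44, adjusted p = 0.0141) as higher, beside 10.2%. Removal of replicate 4 leaves these same samples, so the limit given above for Lag3 and Ly9 holds here too. With the run as a term, the same knockdown estimates were 0.21 for Lag3, 0.06 for Havcr2, -0.44 for Ly9 and -0.30 for Cd48, none of them called. The term groups the controls with library numbers 1 to 4, a grouping that the labels do not give. These estimates therefore lean on replicate 4 and on the run difference among knockdown samples, and cannot part run from knockdown. The genotype differences can be read within a run. In library numbers 18 to 23 alone, Slc11a2KD APP/PS1 against Slc11a2KD WT, 3 of 10 were higher, beside 2.99% of all genes, and 1 was lower, beside 2.09%. These were Cd274 (1.66, edgeR adjusted p = 3.7e-04), Ly9 (1.46, adjusted p = 0.0010), Cd48 (1.05, adjusted p = 9.1e-04) and Cd33 (-0.64, adjusted p = 0.0091), while Cd84 was at 0.48 (adjusted p = 0.254).

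Related genes were followed in 5 lists. With edgeR on the 22 samples, no gene of any list was called in either knockdown comparison, where 0% of all genes were. At an unadjusted p under 0.05 were 1 of 19 checkpoint genes and 1 of 22 ITIM genes in WT, beside 5.92% of all genes. In APP/PS1 they were 5 of 19 checkpoint genes, 3 of 22 ITIM genes, 0 of 9 SLAM genes, 4 of 12 ligands and 5 of 16 phosphatases, kinases or adaptors, beside 20.6% of all genes. DESeq2 called 1 ITIM gene higher in WT, beside 0.032% of all genes. In APP/PS1 it called 1 ITIM gene higher and 1 ligand each way, beside 2.39% higher and 0.698% lower. Genes that DESeq2 gave no adjusted p count as not called in these shares. Without Slc11a2KD APP/PS1 replicate 4, edgeR called 5 checkpoint genes and 5 phosphatases, kinases or adaptors lower in APP/PS1, 3 ligands higher and 1 lower, and 1 ITIM gene each way, beside 7.34% of all genes called higher and 9.07% lower. The genotype counts below stand beside 5.99% of all genes called higher and 4.48% lower in corn oil mice, and 9.77% higher and 6.41% lower in tamoxifen mice. Of 19 tested checkpoint genes other than the members, 4 were higher and 1 lower in Control APP/PS1 (median log2 fold change -0.14, against -0.02 over all genes), and 3 and 1 in Slc11a2KD APP/PS1 (-0.11, against -0.07). Pdcd1, whose product PD-1 binds PD-L1, was at 11.6 CPM in Control WT and 64.7 in Control APP/PS1 (log2 fold change 2.48, SE 0.38, edgeR adjusted p = 6.7e-05) and at 6.06 and 54.0 in the tamoxifen mice (3.15, SE 0.43, edgeR adjusted p = 2.0e-05). Btla (2.89 and 2.99) and Cd28 (1.203 and 1.87) rose in both comparisons too. These receptors are best known from lymphocytes. The 7 T cell markers summed to 17.8 to 52.0 CPM in Control WT, 10.9 to 16.9 in Control APP/PS1, 25.5 to 56.4 in Slc11a2KD WT and 4.1 to 13.4 in Slc11a2KD APP/PS1, with 2 lower and none higher in each genotype comparison. Il7r made up most of the sum, at 3.74 to 51.3 CPM, with Cd4 at up to 4.59 and Lck at up to 3.02, while the defining genes Cd3d, Cd3g, Trac and Trbc2 were at 0 in 17 or 18 of 22 libraries and at most at 0.591 CPM. The 7 B and plasma cell markers summed to 258 to 583 CPM, mostly Ighm (245 to 401 CPM), with Igkc at up to 144, and none was called in either genotype comparison. The part of lymphocytes in these values was not tested.

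The ligands and partners of the members moved both ways, with 3 of 12 higher and 4 lower in Control APP/PS1. Pianp, a partner of PILRA, went from 3.69 to 53.9 CPM (3.85, SE 0.58, edgeR adjusted p = 6.4e-05). Lgals3, a reported ligand of LAG-3, rose in corn oil (1.81) and tamoxifen mice (2.998). The MHC class II genes H2-Aa (-2.22, SE 0.57, edgeR adjusted p = 0.0115) and H2-Eb1 (-2.67, SE 0.60, edgeR adjusted p = 0.0040), which encode the main ligand of LAG-3, were called lower in the corn oil mice. These calls turned on the sample set aside: with Control APP/PS1 replicate 10 kept, H2-Aa was at -1.21 (edgeR adjusted p = 0.250) and H2-Eb1 at -1.56 (adjusted p = 0.140), and 2 of the 12 were lower instead of 4. Among the 12, the tamoxifen mice had 2 higher and 2 lower, the latter Selplg (-0.87), a reported partner of VISTA, and Lgals9 (-0.46), a ligand of TIM-3. Border-associated macrophage markers, from cells that carry MHC class II, were 196 to 397 CPM in Control WT and 73.9 to 179 in Control APP/PS1, 5 of 6 of them lower. Dendritic cell markers summed to 7.22 to 51.3 CPM in Control WT and 2.99 to 30.2 in Control APP/PS1 (1 of 6 lower), and the monocyte and neutrophil markers given above had 5 of 7 lower. The part of these cells in the MHC class II values was not tested.

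Of the 22 other ITIM receptors and their activating partners, 7 rose and 7 fell in Control APP/PS1, and 8 rose and 6 fell in Slc11a2KD APP/PS1. Cd5 (4.58 and 2.53), Cd300lf (2.67 and 2.66), Milr1 (2.10 and 2.35) and Cd72 (2.04 and 1.96) had the largest log2 fold changes in each. Of the 16 phosphatases, kinases and adaptors, 4 rose and 3 fell in corn oil mice and 5 rose and 5 fell in tamoxifen mice. The Src family kinases Fgr (1.44 and 1.46) and Fyn (0.79 and 0.98) rose in both, and the kinase Syk fell in tamoxifen mice (-1.07). Inpp5d, the gene of the phosphatase SHIP-1, did not pass the test in either genotype comparison, and it was lower in library numbers 18 to 23 than in 1 to 4 (-1.003, SE 0.16, edgeR adjusted p = 3.2e-04), as were Lyn (-0.94) and Syk (-1.21). Of 9 other SLAM genes and SAP adaptors, 3 rose and none fell in corn oil mice (median 0.30), and 3 rose and 1 fell in tamoxifen mice (median 0.45).

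Over the 22 samples, genes of nearest pattern were sought for Cd274 and Ly9. These members had the largest differences that the main edgeR fit called in corn oil mice. The measure was the root mean square difference of centred log2 CPM, among 11888 genes. Dpp7 (0.268) and Ctsz (0.295) were nearest to Cd274, and Hif1a (0.350) and Aplp2 (0.389) to Ly9.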

How the data were processed

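CD11b+ hippocampal cells of 23 mice were sequenced after poly(A) selection as paired ends. Per the methods, the authors trimmed reads with Trim Galore 0.6.7, aligned and counted them with STAR on mm39 with GENCODE M31, and tested with DESeq2 1.36.0. The deposited values are raw counts per gene, 1 column per sample. Nothing was pooled by the authors, and p-values measure the spread between samples that the study calls biological replicates.

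All 4 groups entered 1 edgeR 4.0.16 quasi-likelihood fit (R 4.3.3, TMM scaling) of 22 samples, without Control APP/PS1 replicate 10. A gene was tested if 3 or more samples had 5 or more of its counts (18759 of 18876, all 10 members), and p-values were adjusted by Benjamini-Hochberg over them, with a threshold of 0.05. CPM uses TMM library sizes. Exact permutation tests are two-sided, unadjusted and on mean log2 CPM with a prior count of 2. Related genes were named where called with a mean of at least 1 CPM, at most 4 per list and comparison, by size of change. Slamf6, Slamf8, Inpp5d and the single lymphocyte markers fall outside that rule and were chosen after their values were seen. Alternatives were DESeq2 1.42.0, other scaling, filters, samples, a term for library numbers 18 to 23, and leaving out each sample. The term groups the controls with library numbers 1 to 4. Genes that DESeq2 gave no adjusted p count as not called in its shares of all genes. On data simulated for Control APP/PS1 against Control WT (17817 genes), 63 of 100 genes changed by log2 1 and 90 of 100 changed by log2 2 were recovered, with 7 false calls. The changed genes were drawn from those above a minimum mean count, so the recovery does not cover genes with few counts such as Lilrb4a. No difference between runs of library numbers was simulated. Positions and upstream sequence came from GRCm39 with GENCODE M39, in which 18731 genes of the table were found by ID. The members and gene lists were chosen with earlier results of these data known. Upstream windows are printed for Cd274, Ly9 and Cd48 only.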

Additional observations from a re-analysis of the deposited data

Results flagged for a closer look

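In 3 of 40 groups tested (10 transcripts in 4 groups) a sample stood apart from the rest of its group by Dixon's criterion, which chance alone meets in about 1 of 20 groups. Vsir was at 2637 CPM in Slc11a2KD WT replicate 3, where the other 4 samples were at 2037 to 2197. Pilra was at 32.4 CPM in Control APP/PS1 replicate 16, where the others were at 17.8 to 22.2. Ly9 was at 55.8 CPM in Slc11a2KD APP/PS1 replicate 4, where the others were at 25.7 to 32.5.

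Control APP/PS1 replicate 10, which was not among the 22 samples of the main tests, lay above every Control WT sample for 5 transcripts when CPM was scaled over all 23 samples. It had 27.9 CPM of Cd274 (Control WT 11.6 to 22.8), 2.51 of Lilrb4a (0 to 0.463), 30.5 of Pilra (12.5 to 23.3), 35.5 of Ly9 (9.68 to 19.95) and 358 of Cd48 (91.2 to 137). Its Lag3 (53.7 CPM) and Havcr2 (72.7 CPM) were below every other Control sample.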

How the results depend on the processing

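The members called in both genotype comparisons kept direction under every alternative run. The count of members higher in Control APP/PS1 (4) was 2 with an absolute log2 fold change over 1 also required (2.8% of all genes), and 5 by DESeq2 (6.6%), with Control APP/PS1 replicate 10 kept (6.59%) and in a fit of only those groups (11.3%). The count lower was 0 with that fold rule (2.09%) and 2 in a fit of only those groups (7.28%). In Slc11a2KD APP/PS1 against Slc11a2KD WT the count higher (4) was 5 by DESeq2 (11.7%) and 3 with only those groups (4.33%), in library numbers 18 to 23 only (2.99%) or with the fold rule (3.91%). The count lower was 3 by DESeq2 (9.41%), 2 with at least 10 counts in every sample (14.6%), 0 with the fold rule (1.98%) and 1 to 4 over samples left out in turn. In Slc11a2KD APP/PS1 against Control APP/PS1 it was 2 by DESeq2, 3 in library numbers 18 to 23 only (1 higher) and 0 to 3 over samples left out.

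Signs turned only for values that the main edgeR fit did not call, although edgeR called some of them in other settings. For Slc11a2KD WT against Control WT the turned values were, with a term for library numbers 18 to 23, Lag3 0.26, Lilrb4a 0.0537, Cd33 0.0466 and Ly9 0.13. With library numbers 1 to 3 only they were Lag3 0.15, Lilrb4a 0.11, Cd33 0.0003 and Ly9 0.0606, and with 18 to 23 only Havcr2 -0.60, Vsir -0.0902 and Cd48 0.22. Vsir was also at -0.0025 by DESeq2 and with its size factors, -0.0051 with at least 10 counts, -0.0044 with only those groups and -0.0159 without Control WT replicates 12 and 15. For Slc11a2KD APP/PS1 against Control APP/PS1 the term gave Lag3 0.21, Havcr2 0.0592, Vsir 0.0349, Cd33 0.0662 and Cd48 -0.30. For the interaction Lilrb4a was 0.0958 without Control WT replicates 12 and 15, Cd33 0.0196 with the term and Cd84 -0.14 in 18 to 23 only. Leaving out single samples gave, for Slc11a2KD WT against Control WT, Havcr2 -0.14 to 0.16, Vsir -0.0616 to 0.0274, Lilrb4a -0.47 to 0.39 and Ly9 -0.21 to 0.0073, for Slc11a2KD APP/PS1 against Control APP/PS1, Pilra -0.13 to 0.10, and for the interaction Cd274 -0.0667 to 0.18, Pilra -0.0199 to 0.23 and Cd84 -0.12 to 0.15. The cause of these turns was not tested.

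No paired analysis was possible because the labels record no pairing of the mice, and the replicate numbers are the library numbers. The library-number alternatives for Slc11a2KD APP/PS1 against Control APP/PS1 and for the interaction, the contrasts of library numbers 18 to 23 with 1 to 4 and with 1 to 3, and the fit without Control WT replicates 12 and 15, were chosen after seeing the data. Depth limits Lilrb4a, at 0 to 93 counts in the tested libraries.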
